A study of Homo sapiens with 12 samples.

Results

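The response of MOLM13 cells to knockdown of PSPC1 was described across all genes of the deposited count table, from the 4 libraries that the labels assign to this line and this experiment, out of 12 libraries in the series. MOLM13 is an established acute myeloid leukemia line that carries a KMT2A-MLLT3 fusion and an internal tandem duplication in FLT3. The 2 control libraries came from cells infected with a lentiviral control hairpin and the 2 knockdown libraries from cells infected with a lentiviral hairpin against PSPC1. Per the labels' protocols, virus was made in HEK293T cells, infected cells were selected with puromycin or sorted for GFP, the line was grown in medium with serum, and libraries were made from total RNA with a stranded mRNA kit. The other libraries came from OCI-AML5, a second acute myeloid leukemia line grown with GM-CSF. Of these, 4 carried the control or the PSPC1 hairpin in the same experiment, 2 libraries each, and the 4 of a PU.1 experiment were not used. The 4 of the same experiment were fitted together with MOLM13. They thus help set the gene filter, the scaling and the spread behind each SE and p-value given for MOLM13. Their own responses are given only to show where MOLM13 differed. No source used here says whether the 2 libraries of a group are separate cultures or separate hairpins, so that p-values measure the spread between libraries, which may be technical.

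PSPC1 is an RNA-binding protein of the DBHS family, together with SFPQ and NONO, and a component of paraspeckles, nuclear bodies built on the long noncoding RNA NEAT1. These proteins bind RNA and chromatin-associated complexes and take part in transcription, RNA processing and nuclear retention of transcripts. In bulk RNA, fewer cells of a type and less RNA per cell cannot be told apart, and each level below is a share of the mRNA reads of its library.

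The level of PSPC1 in the 2 control libraries was 130 and 135 CPM (read counts scaled to the library's effective size), and it was 27.1 and 27.7 CPM in the 2 knockdown libraries. It fell in both knockdown libraries, with a log2 fold change of -2.27 ± 0.07 (SE, n = 2 libraries a group, adjusted p = 3.5e-31, edgeR quasi-likelihood test with Benjamini-Hochberg adjustment, as for every adjusted p below). The control libraries held 22757998 and 17526626 counts and the knockdown libraries 15372383 and 17171770. Among 13 myeloid markers, 12 reached at least 1 CPM, and ANPEP did not exceed 0.478 CPM. Erythroid markers (5 genes) and megakaryocyte markers (4 genes) stayed under 1 CPM in every library, and the 4 B cell markers summed to between 2.87 and 4.24 CPM. The 5 T and NK cell markers summed to 118 and 116 CPM in control and 77.3 and 74.8 CPM in knockdown libraries, most of it from NCAM1 and NKG7. The 6 epithelial and kidney markers summed to between 1.19 and 2.24 CPM. The myeloid markers summed to 1770 CPM in both controls and 2250 CPM in both knockdown libraries, but they did not move together: of 12 tested, 6 rose and 2 fell. MPO, which encodes the myeloperoxidase of granules, fell from 37.7 and 35.4 CPM to 3.3 and 3.11 CPM (log2 fold change -3.51 ± 0.20), and FLT3 fell as given below. CD4 rose from 214 and 222 CPM to 438 and 442 CPM (log2 fold change 1.01 ± 0.05). LYZ, which encodes lysozyme, rose from 198 and 192 CPM to 349 and 333 CPM (log2 fold change 0.80 ± 0.05). PTPRC, which encodes CD45, rose from 248 and 251 CPM to 410 and 408 CPM (log2 fold change 0.72 ± 0.04). The part of these shifts in the results was not tested.

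Knockdown of PSPC1 in MOLM13 was followed by more falls than rises among growth factor receptors, hematopoietic, FOX and KLF transcription factors, ERK feedback genes, WNT and TGF-beta genes, and enzymes of the tricarboxylic acid cycle. More rises than falls were found in the joint list of IRF, STAT, NFAT and NF-kB factors, among autophagy genes and among long noncoding RNAs. The share of rises among long noncoding RNAs was near that of all genes, and their share of falls was smaller. For WNT and TGF-beta genes the share of falls was near that of protein coding genes at 20 to 100 CPM, and the share of rises was smaller. Of 16457 genes tested, 57.0% had an adjusted p under 0.05. After knockdown 27.6% were higher and 29.5% lower, and 9.90% and 10.9% were so by at least 2-fold. Both knockdown libraries lay beyond both control libraries for 75.6% of genes tested. Counts for the gene lists below are read against these shares, and every median against the 0.01 that is the median log2 fold change over all genes. Most lists hold protein coding genes, of which 28.1% were higher and 35.7% lower. Among protein coding genes at 20 to 100 CPM these shares were 30.5% and 44.2%. A coding list with a share of falls near these is not set apart by it. In the top 25% of protein coding genes by exonic length 34.3% were higher and 33.6% lower, and in the bottom 25% these shares were 23.1% and 34.6%, and the part of transcript length in the lists was not tested. Across 51 lists and symbol families, the shares ran from 81.2% lower among 16 FOX factors to 63.3% higher among 60 genes of autophagy and lysosome regulation. Genes are named by 1 rule, up to 2 largest rises and falls of each list among genes whose higher group averaged 5 CPM or more (1 CPM in noncoding lists). The rule also asked that they pass the test and that both knockdown libraries lie beyond both controls, so neither is a finding for them. Larger changes of genes at lower levels are counted but mostly not named: of 567 genes of the coding lists called by at least 2-fold, 160 were under 5 CPM in both groups. Where a fold change stands with its SE alone, the gene passed the same test. In the plot of list shares, lists of transcription factors other than IRF, STAT, NFAT and NF-kB factors stood on the lower side, as did central carbon metabolism, and lists of noncoding RNAs other than snoRNA host genes stood on the higher side.

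**Figure D1:**
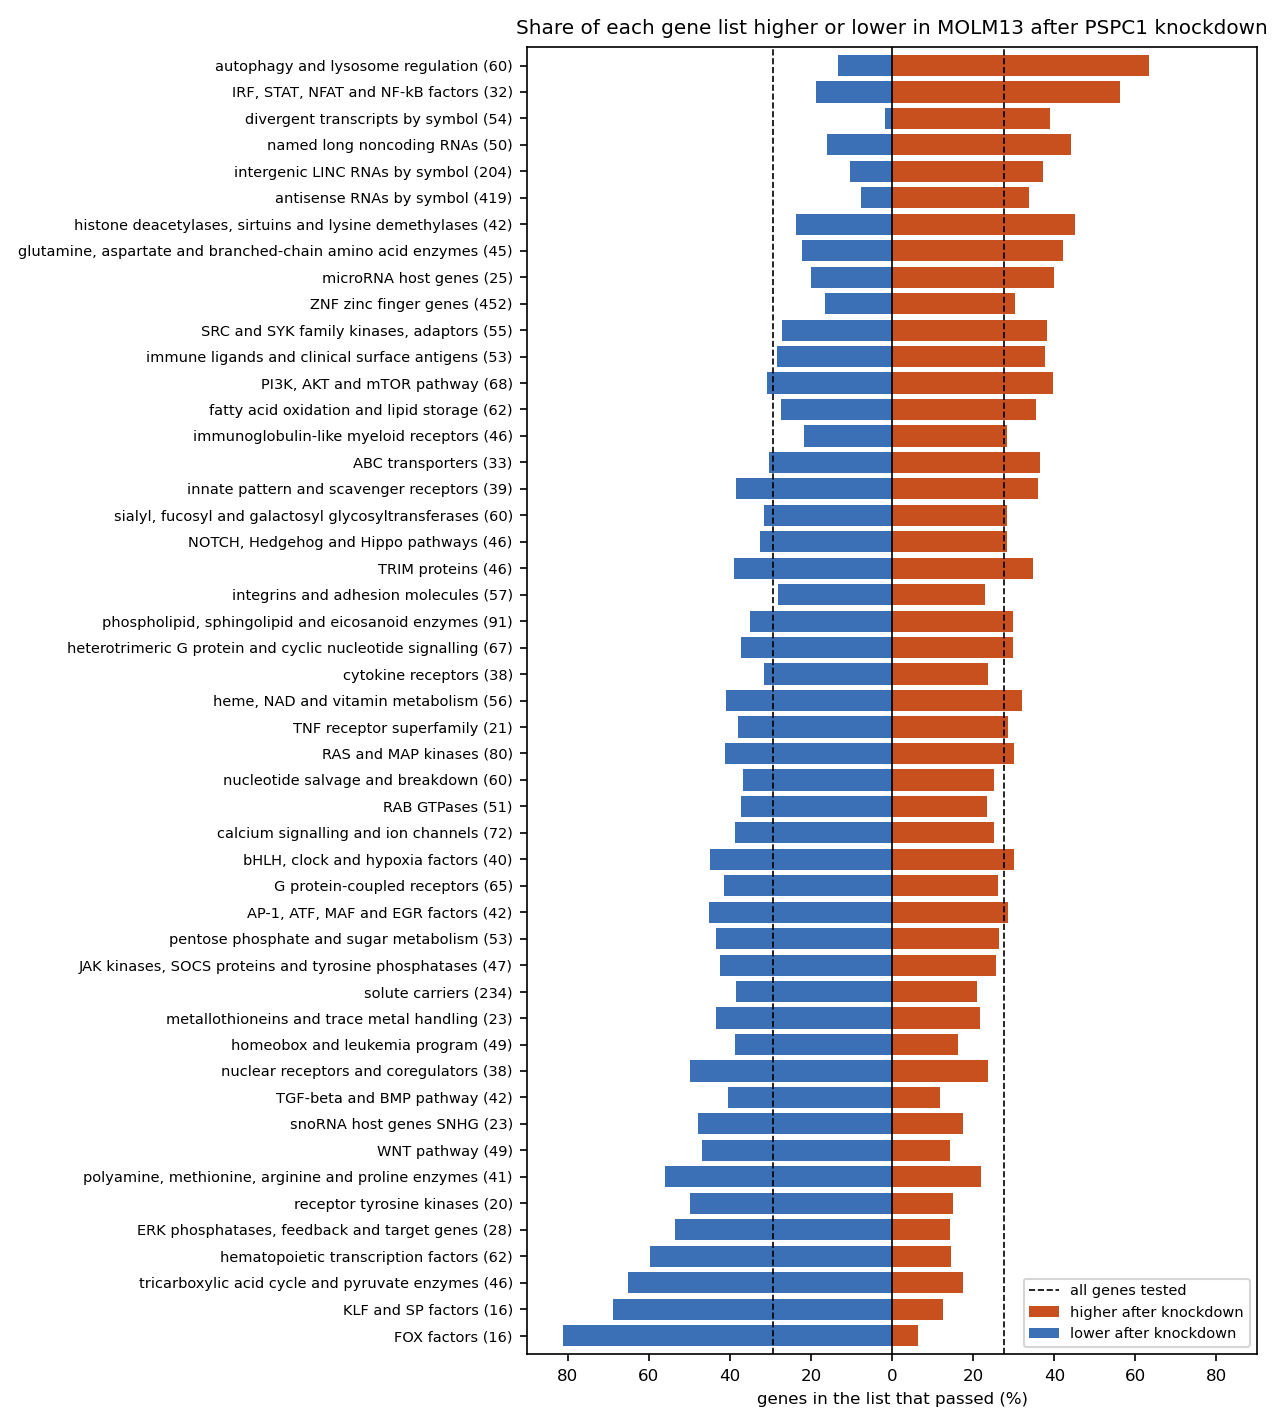
Share of the tested genes of each list that passed an adjusted p of 0.05 in MOLM13, lower after knockdown to the left in blue and higher to the right in orange, in percent; the number of genes tested stands in brackets and lists with under 15 tested genes and 1 list not reported here are left out. The dashed lines mark all genes tested, at 29.5% lower and 27.6% higher. Protein coding genes alone, not marked, stood at 35.7% lower and 28.1% higher. The longest bar to the left belongs to FOX factors and the longest to the right to autophagy and lysosome regulation.

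Receptor tyrosine kinases transmit growth factor signals through their intracellular kinase domain. Of 41 such genes 20 were expressed well enough to be tested, of which 3 rose and 10 fell, with a median log2 fold change of -0.74. IGF1R, the receptor for insulin-like growth factors, fell from 16.6 and 15.5 CPM to 3.95 and 2.87 CPM (log2 fold change -2.25 ± 0.14, adjusted p = 5.4e-19). EPHA1, an ephrin receptor, fell from 5.07 and 5.97 CPM to 1.78 and 1.93 CPM (log2 fold change -1.56 ± 0.36, adjusted p = 0.00022). ERBB2, a member of the EGF receptor family, rose from 1.74 and 1.31 CPM to 5.07 and 6.15 CPM (log2 fold change 1.86 ± 0.32, adjusted p = 2.1e-06). The 2 control libraries were both under 2 CPM for this gene and the 2 knockdown libraries both above 5 CPM. RYK, a receptor for WNT ligands, rose from 36.7 and 35 CPM to 44.5 and 48.1 CPM (log2 fold change 0.37 ± 0.08, adjusted p = 0.00016). Of 3 more receptors, chosen after their values were seen, AXL fell from 55.8 and 54 CPM to 26.2 and 23.3 CPM (log2 fold change -1.15 ± 0.11). RET, the receptor for GDNF ligands, fell from 46.7 and 49.7 CPM to 23.7 and 24.6 CPM (log2 fold change -1.0 ± 0.13). FGFR1, a receptor for fibroblast growth factors, fell from 20.8 and 22 CPM to 8.7 and 8.61 CPM (log2 fold change -1.30 ± 0.13). Across these falls the 2 libraries of a group lay close together and the groups stood apart, which is no finding for genes chosen in this way. FLT3, the receptor that is mutated in this line and a marker fixed for it, is counted here with the cytokine receptors and fell from 323 and 319 CPM to 170 and 164 CPM (log2 fold change -0.94 ± 0.05, adjusted p = 4.3e-23). Its knockdown libraries were both well under its controls.

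Cytokine receptors did not share 1 direction. Of 44 listed genes 38 were tested, 9 rose and 12 fell. Without the second knockdown library 5 rose. IL15RA, the high-affinity chain for interleukin 15, fell from 7.9 and 8.9 CPM to 1.19 and 0.938 CPM (log2 fold change -2.98 ± 0.26, adjusted p = 2e-14). IL2RB, the beta chain that receptors for interleukins 2 and 15 share, fell from 11.8 and 15.4 CPM to 4.22 and 3.81 CPM (log2 fold change -1.76 ± 0.24, adjusted p = 9e-09). IL2RG, the common chain of both receptors, chosen after its values were seen, had 0.685 and 0.717 CPM in control and 0.264 and 0.82 CPM in knockdown libraries, with overlapping groups (adjusted p = 0.71). IL10RA, the ligand-binding chain of the interleukin 10 receptor, rose from 6.71 and 5.56 CPM to 12.8 and 12.2 CPM (log2 fold change 1.01 ± 0.17, adjusted p = 1.5e-06). IL13RA1, which binds interleukin 13, rose from 42.6 and 46.2 CPM to 82.9 and 85.2 CPM (log2 fold change 0.92 ± 0.07, adjusted p = 5.3e-16). CSF3R, the receptor for granulocyte colony-stimulating factor and a marker fixed for the line, rose by little, from 212 and 214 CPM to 231 and 232 CPM (log2 fold change 0.12 ± 0.05, adjusted p = 0.035), and its call was lost without any 1 of the 4 MOLM13 libraries, at adjusted p of 0.13 to 0.21.

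Of 26 genes of the TNF receptor superfamily 21 were tested, with 6 higher and 8 lower, or 5 lower without the second control library. Their median log2 fold change was -0.10 as fitted and 0.26 with the gene at 0 in a group put at its bound, so no direction is read from it. TNFRSF8, which encodes CD30, fell from 33.3 and 32.6 CPM to 3.03 and 6.68 CPM (log2 fold change -2.74 ± 0.19, adjusted p = 4.5e-18), with a log2 fold change of -3.45 without the second knockdown library. TNFRSF1B, the second receptor for tumor necrosis factor, fell from 100 and 93.9 CPM to 31.2 and 26.5 CPM (log2 fold change -1.75 ± 0.08, adjusted p = 3.2e-25). TNFRSF10C, a decoy receptor for TRAIL, rose from 0.594 and 0.538 CPM to 5.27 and 5.27 CPM (log2 fold change 3.20 ± 0.50, adjusted p = 2.6e-07). TNFRSF14, known as HVEM, rose from 1.1 and 0.358 CPM to 4.48 and 6.74 CPM (log2 fold change 2.87 ± 0.41, adjusted p = 3.5e-08). Its log2 fold change was 3.94 without the first control library and 2.34 without the second. Neither control of TNFRSF14 reached 2 CPM and both knockdown libraries were above 4 CPM. Both death receptors that were chosen after their values were seen rose. FAS went from 13 and 14.8 CPM to 34.8 and 34.7 CPM (log2 fold change 1.33 ± 0.11). TNFRSF10B, a receptor for TRAIL, went from 260 and 258 CPM to 508 and 520 CPM (log2 fold change 0.99 ± 0.04).

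G protein-coupled receptors sense chemokines, lipids, nucleotides and histamine. Of 104 listed genes 65 were tested, 17 rose and 27 fell, 21 of these by at least 2-fold, with a median log2 fold change of -0.22. S1PR3, a receptor for sphingosine 1-phosphate, fell from 23.5 and 20.6 CPM to 1.65 and 3.28 CPM (log2 fold change -3.14 ± 0.23, adjusted p = 5.5e-17), with a log2 fold change of -3.75 without the second knockdown library. CXCR3, a receptor for interferon-induced chemokines, rose from 4.75 and 4.6 CPM to 13.4 and 12 CPM (log2 fold change 1.44 ± 0.24, adjusted p = 1.6e-06). GPR65, which senses extracellular protons, rose from 1.51 and 2.93 CPM to 5.87 and 4.98 CPM (log2 fold change 1.33 ± 0.27, adjusted p = 2.7e-05). Among genes chosen after their values were seen, CCR2, a chemokine receptor of monocytes, fell from 123 and 115 CPM to 15.5 and 12.8 CPM (log2 fold change -3.07 ± 0.09). CX3CR1, the fractalkine receptor, fell from 16.9 and 17.3 CPM to 2.57 and 3.4 CPM (log2 fold change -2.51 ± 0.23). GPR84, a receptor for medium-chain fatty acids, fell from 21.1 and 16.5 CPM to 1.91 and 2.46 CPM (log2 fold change -3.10 ± 0.26). Each of these 3 receptors was lower in both knockdown libraries than in either control, which is no finding for genes chosen in this way. Both knockdown libraries lay beyond both controls for 75.6% of all genes tested.

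Immunoglobulin-like myeloid receptors and innate receptors moved both ways. Of 66 immunoglobulin-like genes 46 were tested, 13 rose and 10 fell, and of 56 innate pattern and scavenger receptors 39 were tested, 14 rose and 15 fell. SIGLEC1, a sialic acid-binding receptor of macrophages, rose from 0.731 and 0.299 CPM to 9.56 and 9.61 CPM (log2 fold change 4.14 ± 0.42, adjusted p = 4.9e-12), with a log2 fold change of 4.96 without the first control library. LILRB2, an inhibitory receptor for MHC class I, rose from 2.15 and 1.79 CPM to 7.78 and 7.27 CPM (log2 fold change 1.92 ± 0.35, adjusted p = 6.7e-06). SIRPB1, a signal-regulatory protein, fell from 61.7 and 57.7 CPM to 13.7 and 13.5 CPM (log2 fold change -2.13 ± 0.12, adjusted p = 1.8e-21). Both LILRB2 and SIRPB1 have close paralogs, among which reads could be split. NLRX1, a mitochondrial NOD-like receptor, rose from 20.9 and 18.6 CPM to 45.7 and 44.6 CPM (log2 fold change 1.19 ± 0.10, adjusted p = 4e-15). NLRC4, an inflammasome sensor, rose from 2.88 and 4.48 CPM to 7.97 and 11.5 CPM (log2 fold change 1.42 ± 0.26, adjusted p = 7.2e-06). MEFV, which encodes pyrin, fell from 4.34 and 6.33 CPM to 1.19 and 0.645 CPM (log2 fold change -2.54 ± 0.38, adjusted p = 8.6e-08). NOD2, a sensor of bacterial cell wall fragments, fell from 7.99 and 6.87 CPM to 2.11 and 2.34 CPM (log2 fold change -1.74 ± 0.32). CD300A, an inhibitory lipid receptor, fell from 12.3 and 11 CPM to 7.51 and 5.57 CPM (log2 fold change -0.84 ± 0.17, adjusted p = 4.8e-05). Of the 10 falls among immunoglobulin-like genes 6 were by at least 2-fold, most of them at low levels, such as TREML2, chosen after its values were seen, which fell from 3.01 and 3.76 CPM to 0.264 and 0.41 CPM (log2 fold change -3.29 ± 0.63).

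Few adhesion genes changed by 2-fold. Of 74 integrin and adhesion genes 57 were tested, 13 rose and 16 fell, 3 and 2 of them by at least 2-fold. CD37, a tetraspanin of leukocytes, rose from 65.1 and 67 CPM to 201 and 206 CPM (log2 fold change 1.63 ± 0.06, adjusted p = 7.3e-30). ITGAX, the integrin chain CD11c, rose from 28.5 and 29.6 CPM to 65.4 and 57.8 CPM (log2 fold change 1.08 ± 0.09, adjusted p = 1.3e-14). SELPLG, the ligand for P-selectin, fell from 135 and 115 CPM to 51.5 and 54.4 CPM (log2 fold change -1.24 ± 0.07, adjusted p = 1.4e-20). PVR, the poliovirus receptor that NK cell receptors bind, fell from 40.6 and 42.3 CPM to 21.7 and 23.1 CPM (log2 fold change -0.89 ± 0.11). Of 69 immune ligands and clinical surface antigens 53 were tested, 20 rose and 15 fell, 6 and 7 of them by at least 2-fold. CD276, an immune checkpoint ligand, rose from 6.3 and 6.15 CPM to 18.7 and 21.8 CPM (log2 fold change 1.70 ± 0.13, adjusted p = 1.5e-16). CD52, a small glycosylphosphatidylinositol-anchored antigen, rose from 3.56 and 2.27 CPM to 11.3 and 9.02 CPM (log2 fold change 1.78 ± 0.30, adjusted p = 1.4e-06). ENTPD1, the ATP-degrading ectoenzyme CD39, fell from 21.4 and 14.9 CPM to 6.39 and 6.86 CPM (log2 fold change -1.46 ± 0.17, adjusted p = 1.6e-10). SLAMF8, of the SLAM receptor family, fell from 10 and 11.5 CPM to 3.1 and 3.75 CPM (log2 fold change -1.65 ± 0.26). The plot of surface receptor genes shows the 4 libraries of 20 such genes side by side.

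**Figure D2:**
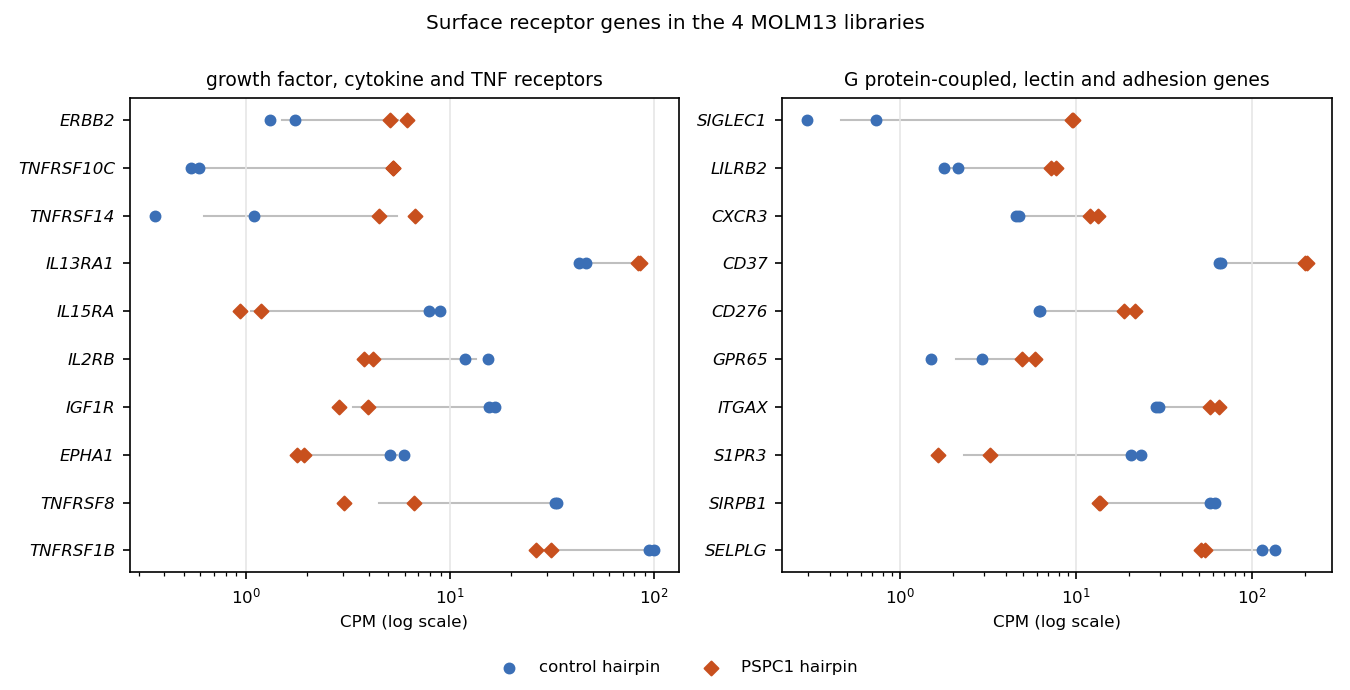
Level in CPM on a log axis of 20 surface genes in the 2 control libraries (blue circles) and the 2 knockdown libraries (orange diamonds) of MOLM13; grey lines join the geometric means of the groups. The groups do not overlap for any gene shown, which was a condition for naming it, and IL15RA and S1PR3 lie to the left of their controls while SIGLEC1, CD37 and CD276 lie to the right.

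Hematopoietic transcription factors fix the identity and the stage of blood cells. Of 69 listed genes 62 were tested, 9 rose and 37 fell, with a median log2 fold change of -0.60. None of the 9 rose by 2-fold and 18 of the 37 fell by at least that. MYBL2, a cell cycle factor of the MYB family, fell from 260 and 243 CPM to 31.6 and 30.9 CPM (log2 fold change -3.01 ± 0.06, adjusted p = 1.7e-38). GATA2, a factor of stem and progenitor cells, fell from 27.7 and 32.1 CPM to 5.93 and 7.32 CPM (log2 fold change -2.16 ± 0.14, adjusted p = 2.3e-18). BCL6, a transcriptional repressor, rose from 5.02 and 5.38 CPM to 7.91 and 9.02 CPM (log2 fold change 0.71 ± 0.16, adjusted p = 0.00016). CBFA2T2, a corepressor of the ETO family, rose from 19.5 and 19.8 CPM to 28.5 and 28.1 CPM (log2 fold change 0.53 ± 0.10, adjusted p = 1.8e-05). The falls of MYBL2 and GATA2 were past 4-fold, while both rises stayed under 2-fold. Among genes chosen after their values were seen, RUNX1, a central regulator of blood formation, fell from 419 and 442 CPM to 255 and 253 CPM (log2 fold change -0.76 ± 0.04). CEBPA, which drives granulocytic fate, fell from 233 and 224 CPM to 125 and 129 CPM (log2 fold change -0.85 ± 0.05). TCF3, an E protein, fell from 218 and 213 CPM to 62.2 and 66.3 CPM (log2 fold change -1.75 ± 0.06). SPI1, which encodes PU.1 and was the target of the other experiment in the series, rose from 254 and 245 CPM to 326 and 352 CPM (log2 fold change 0.44 ± 0.05). PU.1 is a marker fixed for the line, and it went against the balance of the list.

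Homeobox and leukemia genes also had more falls than rises, with few 2-fold changes. Of 60 listed genes 49 were tested, 8 rose and 19 fell, 3 of each by at least 2-fold. OLIG1, a basic helix-loop-helix factor, fell from 25.8 and 21.9 CPM to 2.11 and 2.75 CPM (log2 fold change -3.29 ± 0.19, adjusted p = 3e-20). Its neighbour OLIG2 fell from 7.49 and 7.35 CPM to 0.923 and 0.0586 CPM (log2 fold change -3.96 ± 0.50, adjusted p = 1.7e-09). The 2 knockdown libraries of OLIG2 differed by more than 10-fold from each other, and both lay under the controls. Its log2 fold change was -6.84 without the first knockdown library and -3.01 without the second. An antisense transcript overlaps both OLIG genes. HOXA7 rose from 4.02 and 3.29 CPM to 9.03 and 6.91 CPM (log2 fold change 1.11 ± 0.28, adjusted p = 0.00053). It overlaps noncoding RNA of the HOXA cluster on the opposite strand. HOXA9 and MEIS1, known targets of KMT2A fusions and markers fixed for the line, did not pass the test. The level of HOXA9 was 66.4 and 67.6 CPM without and 62.1 and 70.2 CPM with knockdown (log2 fold change -0.02 ± 0.08, adjusted p = 0.9), with overlapping groups. For MEIS1 these levels were 46.8 and 41.8 CPM and 39.7 and 38.7 CPM (log2 fold change -0.18 ± 0.11, adjusted p = 0.16).

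FOX factors were the list with the highest share of falls, with 13 lower and 1 higher of 16 tested among 31 listed, and a median log2 fold change of -0.42. The 1 rise was not called without the second knockdown library. FOXM1, a driver of G2 and M phase genes, fell from 76.8 and 80.5 CPM to 11.9 and 12.9 CPM (log2 fold change -2.66 ± 0.09, adjusted p = 6.6e-30). FOXA1 fell from 11 and 9.8 CPM to 2.31 and 3.69 CPM (log2 fold change -1.78 ± 0.23, adjusted p = 3.6e-09). FOXO3, a factor restrained by AKT and chosen after its values were seen, fell from 139 and 140 CPM to 47.9 and 43.5 CPM (log2 fold change -1.61 ± 0.06). KLF and SP factors gave 11 falls and 2 rises of 16 tested among 20 listed. KLF9 fell from 19 and 20.4 CPM to 5.01 and 4.57 CPM (log2 fold change -2.04 ± 0.16, adjusted p = 5e-16). KLF3, a repressor, fell from 14.6 and 15.4 CPM to 5.01 and 4.22 CPM (log2 fold change -1.70 ± 0.15). Of the rises KLF2 went from 9.59 and 9.08 CPM to 13.6 and 13.1 CPM (log2 fold change 0.52 ± 0.17, adjusted p = 0.01). KLF10 went from 48.9 and 42.4 CPM to 58.3 and 51.7 CPM (log2 fold change 0.26 ± 0.10, adjusted p = 0.019). Both calls were lost in 1 fit: without the second control library, KLF2 had an adjusted p of 0.055 and KLF10 of 0.29. KLF10 also missed the threshold without the first knockdown library, at 0.26.

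AP-1, ATF, MAF and EGR factors were divided, with 12 higher and 19 lower of 42 tested among 47 listed. EGR1, an immediate early factor, rose from 32.4 and 28.9 CPM to 89.8 and 94.8 CPM (log2 fold change 1.59 ± 0.08, adjusted p = 9e-23). CREB3, which is released from the Golgi by proteolysis, rose from 6.26 and 8.6 CPM to 16.3 and 13.8 CPM (log2 fold change 1.03 ± 0.18, adjusted p = 3.5e-06). NFE2, a basic leucine zipper factor of the erythroid and megakaryocyte lineages, fell from 22.1 and 21.8 CPM to 2.97 and 4.22 CPM (log2 fold change -2.60 ± 0.18, adjusted p = 2.1e-17). ATF3, a stress-induced factor, fell from 6.94 and 6.87 CPM to 0.923 and 1.82 CPM (log2 fold change -2.31 ± 0.28, adjusted p = 4.3e-10), with a log2 fold change of -2.91 without the second knockdown library. Nuclear receptors and coregulators gave 9 rises and 19 falls of 38 tested among 53 listed. TBL1X, a subunit of the NCOR corepressor complex, fell from 50.3 and 49.5 CPM to 2.31 and 3.63 CPM (log2 fold change -4.05 ± 0.14, adjusted p = 5.3e-30). THRA, a thyroid hormone receptor, fell from 57.7 and 60 CPM to 20.2 and 19.5 CPM (log2 fold change -1.57 ± 0.09, adjusted p = 5.9e-20). NCOA3, a coactivator, rose from 84 and 80.9 CPM to 179 and 174 CPM (log2 fold change 1.10 ± 0.05, adjusted p = 2.4e-23). NCOA4, the receptor for autophagy of ferritin, rose from 193 and 194 CPM to 369 and 352 CPM (log2 fold change 0.90 ± 0.05).

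Among bHLH, clock and hypoxia factors 12 rose and 18 fell of 40 tested among 47 listed. MYC, the growth-associated factor, fell from 602 and 599 CPM to 157 and 150 CPM (log2 fold change -1.97 ± 0.04, adjusted p = 3.8e-37), and its groups lay far apart. BHLHE40, a clock repressor, fell from 31.2 and 32.9 CPM to 10 and 10.4 CPM (log2 fold change -1.65 ± 0.13, adjusted p = 8.5e-16). AHR, the aryl hydrocarbon receptor, rose from 45.5 and 45.5 CPM to 76.1 and 75.2 CPM (log2 fold change 0.73 ± 0.07, adjusted p = 2.4e-12). Its repressor AHRR rose from 117 and 117 CPM to 194 and 195 CPM (log2 fold change 0.74 ± 0.05, adjusted p = 5.1e-18). AHRR overlaps PDCD6 on the same strand, so how reads were assigned between them is uncertain. The list of IRF, STAT, NFAT and NF-kB factors went the other way, with 18 higher and 6 lower of 32 tested among 35 listed, and a median log2 fold change of 0.19. IRF7, which amplifies type I interferon, rose from 14.1 and 13.3 CPM to 49.5 and 50.9 CPM (log2 fold change 1.87 ± 0.11, adjusted p = 3.8e-21). STAT2, a subunit of the interferon-activated ISGF3 complex, rose from 65 and 62.6 CPM to 184 and 166 CPM (log2 fold change 1.45 ± 0.06, adjusted p = 9.7e-26). NFKBIB, an inhibitor of NF-kB, fell from 47 and 42.5 CPM to 23.9 and 22.6 CPM (log2 fold change -0.95 ± 0.10, adjusted p = 2.6e-11). NFKBID, another such inhibitor, fell from 14.6 and 12 CPM to 9.56 and 7.32 CPM (log2 fold change -0.67 ± 0.20, adjusted p = 0.0031) but missed the threshold without the first control library, at an adjusted p of 0.065, and without the second knockdown library, at 0.079.

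Histone deacetylases, sirtuins and lysine demethylases were tested in full, all 42 listed, with 19 higher and 10 lower and a median log2 fold change of 0.18. KDM5B, which removes methyl groups from lysine 4 of histone H3, rose from 111 and 112 CPM to 222 and 224 CPM (log2 fold change 1.00 ± 0.05, adjusted p = 8.9e-23). KDM6B, which acts on lysine 27, rose from 85.2 and 86.6 CPM to 146 and 154 CPM (log2 fold change 0.80 ± 0.06, adjusted p = 3e-16). KDM1A, or LSD1, a demethylase that blocks myeloid differentiation in leukemia, fell from 168 and 178 CPM to 68.6 and 70.1 CPM (log2 fold change -1.32 ± 0.06, adjusted p = 3.1e-26). HDAC2 fell from 385 and 391 CPM to 198 and 195 CPM (log2 fold change -0.98 ± 0.04, adjusted p = 7.5e-25). None of the 19 rises reached 2-fold, and KDM5B came nearest to it.

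Feedback regulators of the ERK pathway are induced by the signal they restrain. Of 30 genes listed as ERK phosphatases, feedback and target genes 28 were tested, 4 rose and 15 fell, with a median log2 fold change of -0.25. SPRY4, an inhibitor of receptor signalling, fell from 5.75 and 5.62 CPM to 0.923 and 0.586 CPM (log2 fold change -2.92 ± 0.37, adjusted p = 2.4e-09). ETV4, an ETS factor downstream of ERK, fell from 34.3 and 31.2 CPM to 7.05 and 9.14 CPM (log2 fold change -2.01 ± 0.16, adjusted p = 1.8e-15). Both phosphatases named among the rises were under 10 CPM, and whether ERK signalling induces either of them was not tested. DUSP28 rose from 4.25 and 3.52 CPM to 7.18 and 6.86 CPM (log2 fold change 0.84 ± 0.22, adjusted p = 0.0009). DUSP18 rose from 5.39 and 3.46 CPM to 6.72 and 8.15 CPM (log2 fold change 0.73 ± 0.26, adjusted p = 0.014). The call of DUSP18 was lost without the second control library, at an adjusted p of 0.21, and without the second knockdown library, at 0.15. Larger rises stood at lower levels, among genes chosen after their values were seen. SPRED3, an inhibitor of RAS signalling, rose from 0.228 and 0.239 CPM to 3.16 and 1.23 CPM (log2 fold change 3.18 ± 0.57), with a log2 fold change of 2.36 without the first knockdown library. PHLDA1 rose from 1.23 and 1.97 CPM to 5.67 and 3.93 CPM (log2 fold change 1.60 ± 0.31). Of 80 RAS and MAP kinase genes tested among 83 listed, 24 rose and 33 fell. RASGRP4, a RAS activator of mast and myeloid cells, rose from 7.67 and 9.86 CPM to 25.7 and 26.5 CPM (log2 fold change 1.58 ± 0.18, adjusted p = 1.4e-10). MAP3K10, a mixed-lineage kinase, rose from 10.4 and 11.6 CPM to 19.6 and 21.7 CPM (log2 fold change 0.92 ± 0.15, adjusted p = 1.1e-06). MAPK6, or ERK3, fell from 123 and 130 CPM to 42.5 and 45.9 CPM (log2 fold change -1.51 ± 0.07, adjusted p = 1.7e-25). MAP3K14, the kinase of the noncanonical NF-kB pathway, fell from 5.62 and 5.14 CPM to 1.85 and 1.82 CPM (log2 fold change -1.56 ± 0.26).

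Tyrosine kinases of the SRC and SYK families and their adaptors gave 21 rises and 15 falls of 55 tested among 67 listed. YES1, a SRC family kinase, rose from 50.1 and 56.8 CPM to 118 and 117 CPM (log2 fold change 1.14 ± 0.07, adjusted p = 2.3e-20). STAP1, an adaptor, rose from 0.913 and 1.08 CPM to 5.27 and 5.8 CPM (log2 fold change 2.48 ± 0.31, adjusted p = 1.2e-09). PTK2, or focal adhesion kinase, fell from 13.6 and 9.38 CPM to 4.48 and 4.98 CPM (log2 fold change -1.28 ± 0.24, adjusted p = 1.3e-05). MATK, a kinase that inactivates SRC kinases, fell from 142 and 143 CPM to 62.8 and 62.2 CPM (log2 fold change -1.19 ± 0.06). JAK kinases, SOCS proteins and tyrosine phosphatases gave 12 rises and 20 falls of 47 tested among 49 listed. JAK2, a kinase of cytokine receptors, rose from 37.8 and 37 CPM to 85.5 and 90.2 CPM (log2 fold change 1.23 ± 0.07, adjusted p = 7e-20). PTPRJ, a receptor phosphatase, rose from 91.6 and 86.9 CPM to 186 and 169 CPM (log2 fold change 0.99 ± 0.06, adjusted p = 2.2e-19). PIM1, a kinase induced by cytokines, fell from 54.1 and 56.6 CPM to 9.89 and 7.74 CPM (log2 fold change -2.66 ± 0.09, adjusted p = 2.9e-30). SOCS3, a feedback inhibitor of JAK kinases, fell from 6.07 and 6.45 CPM to 1.05 and 1.46 CPM (log2 fold change -2.30 ± 0.35).

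PI3K, AKT and mTOR genes were split, with 27 higher and 21 lower of 68 tested among 73 listed. RRAGB, a RAG GTPase that recruits mTORC1 to lysosomes, rose from 9.22 and 9.5 CPM to 22.7 and 22.7 CPM (log2 fold change 1.28 ± 0.15, adjusted p = 2.6e-10). SGK3, an AKT-related kinase, rose from 47.7 and 48 CPM to 105 and 95.6 CPM (log2 fold change 1.07 ± 0.08, adjusted p = 5.2e-17). TRIB3, a pseudokinase, fell from 79.7 and 72.8 CPM to 16.1 and 18.9 CPM (log2 fold change -2.12 ± 0.10, adjusted p = 1.2e-24). DDIT4, an inhibitor of mTORC1, fell from 11.6 and 11.3 CPM to 3.16 and 2.58 CPM (log2 fold change -2.00 ± 0.20, adjusted p = 3e-12). Of 67 genes of heterotrimeric G protein and cyclic nucleotide signalling tested among 83 listed, 20 rose and 25 fell. GNG7, a gamma subunit, rose from 2.42 and 3.82 CPM to 17.9 and 21.6 CPM (log2 fold change 2.7 ± 0.17, adjusted p = 4e-19). ADCY4, an adenylyl cyclase, rose from 1.78 and 1.97 CPM to 5.87 and 6.97 CPM (log2 fold change 1.78 ± 0.29, adjusted p = 5.5e-07). RGS16, which speeds the shutdown of G protein signals, fell from 31.4 and 23.8 CPM to 2.24 and 2.11 CPM (log2 fold change -3.67 ± 0.19, adjusted p = 2.4e-22). PDE4D, which degrades cyclic AMP, fell from 18 and 17 CPM to 5.07 and 3.4 CPM (log2 fold change -2.06 ± 0.18).

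Developmental ligand pathways had a smaller share of rises than the 28.1% of protein coding genes. TGF-beta and BMP genes gave 5 rises (11.9%) and 17 falls (40.5%) of 42 tested among 51 listed. WNT genes gave 7 (14.3%) and 23 (46.9%) of 49 tested among 65 listed. Of protein coding genes 35.7% fell, and 44.2% of those at 20 to 100 CPM, so the shares of falls do not set these lists apart. INHBA, the subunit of activin A, fell from 131 and 138 CPM to 10.1 and 10.8 CPM (log2 fold change -3.68 ± 0.10, adjusted p = 4.7e-34). BMP8B, a BMP ligand, fell from 78.5 and 80.2 CPM to 13.6 and 16.5 CPM (log2 fold change -2.39 ± 0.10, adjusted p = 2.8e-26). Both ligands fell past 4-fold. ACVRL1, a BMP receptor of endothelium, rose from 6.85 and 6.33 CPM to 12.6 and 14.1 CPM (log2 fold change 1.01 ± 0.26), with an adjusted p of 0.00077 by edgeR but of 0.71 by DESeq2. ACVR1, another BMP receptor, rose from 2.92 and 3.7 CPM to 7.84 and 5.1 CPM (log2 fold change 0.97 ± 0.24), with an adjusted p of 0.00045 with all libraries and of 0.057 without the first knockdown library. WNT7B, a WNT ligand, fell from 19.5 and 17 CPM to 1.05 and 0.996 CPM (log2 fold change -4.15 ± 0.28, adjusted p = 9.9e-18). KREMEN1, a receptor for the WNT inhibitor DKK1, fell from 4.75 and 5.79 CPM to 1.65 and 1.05 CPM (log2 fold change -1.96 ± 0.28, adjusted p = 2.5e-08). CTNNB1, which encodes beta-catenin, rose from 192 and 195 CPM to 282 and 268 CPM (log2 fold change 0.51 ± 0.05, adjusted p = 4.7e-13). FZD2, a WNT receptor, rose from 16.5 and 13.9 CPM to 22.5 and 25.4 CPM (log2 fold change 0.65 ± 0.14). WNT2B, a WNT ligand under 5 CPM that was picked out once its values were seen, went from 1.19 and 1.49 CPM to 3.23 and 4.63 CPM (log2 fold change 1.56 ± 0.39).

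Of 46 genes of the NOTCH, Hedgehog and Hippo pathways tested among 58 listed, 13 rose and 15 fell. NF2, which encodes merlin, fell from 50.5 and 53.6 CPM to 15.3 and 11.7 CPM (log2 fold change -1.95 ± 0.11, adjusted p = 1.7e-21). TEAD4, the DNA-binding partner of YAP, fell from 32.6 and 34.5 CPM to 10.4 and 8.15 CPM (log2 fold change -1.86 ± 0.16, adjusted p = 4.2e-14). LATS2, a Hippo kinase, rose from 20.6 and 18.8 CPM to 34.4 and 36.3 CPM (log2 fold change 0.84 ± 0.09, adjusted p = 1.4e-11). DTX4, a NOTCH-related ubiquitin ligase, rose from 5.57 and 5.85 CPM to 10.7 and 11.6 CPM (log2 fold change 0.97 ± 0.15). Calcium signalling and ion channel genes gave 18 rises and 28 falls of 72 tested among 88 listed. CAMK2D, a calmodulin-dependent kinase, rose from 25.4 and 21 CPM to 60 and 59 CPM (log2 fold change 1.35 ± 0.09, adjusted p = 5.9e-19). KCNK5, an acid-sensitive potassium channel, fell from 37.9 and 35.7 CPM to 7.05 and 5.33 CPM (log2 fold change -2.58 ± 0.15, adjusted p = 8.3e-21). Among regulators of the actin cytoskeleton, DIAPH3, a formin, fell from 41.7 and 44.5 CPM to 5.8 and 5.98 CPM (log2 fold change -2.87 ± 0.14, adjusted p = 5.5e-23). ARHGAP11A fell from 239 and 243 CPM to 63.3 and 52.3 CPM (log2 fold change -2.06 ± 0.06). WASL, an activator of actin branching, rose from 8.72 and 8.9 CPM to 19.2 and 17.9 CPM (log2 fold change 1.07 ± 0.15, adjusted p = 1.2e-08).

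**Figure D3:**
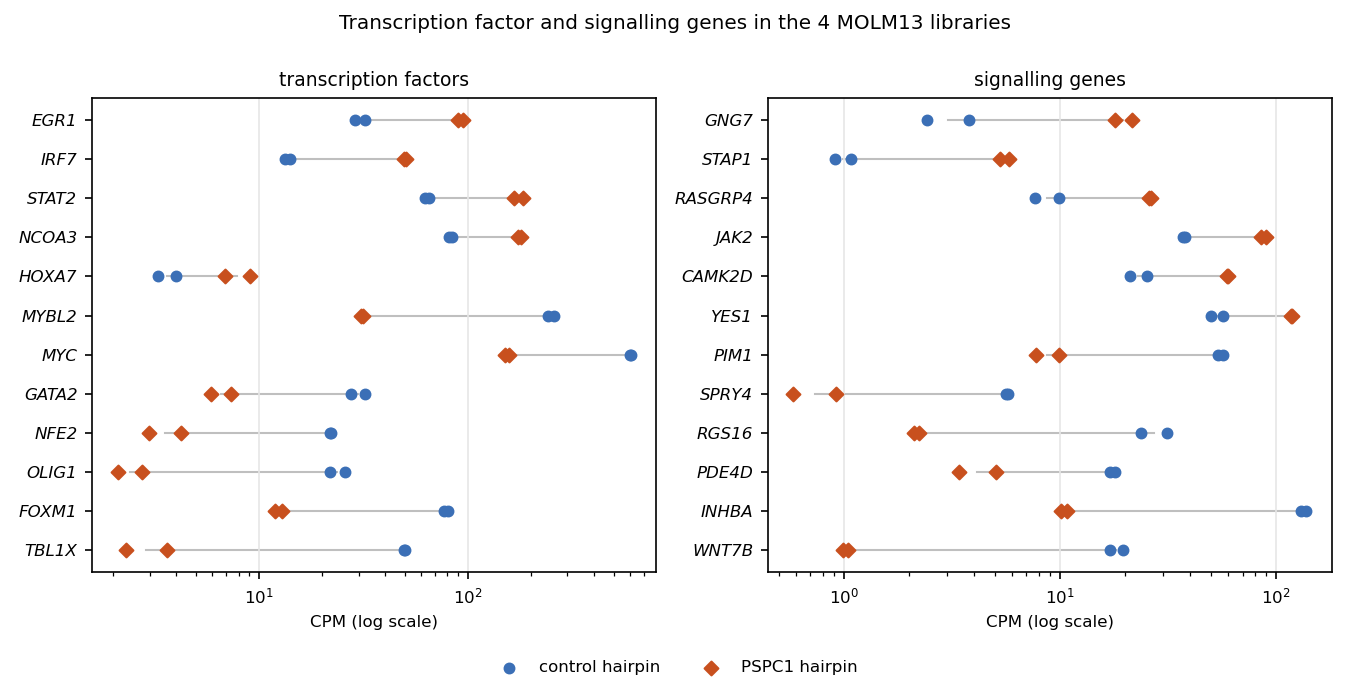
Level in CPM on a log axis of 12 transcription factor genes (left) and 12 signalling genes (right) in the 2 control libraries (blue circles) and the 2 knockdown libraries (orange diamonds) of MOLM13; grey lines join the geometric means of the groups. EGR1, IRF7 and GNG7 lie to the right of their controls, and MYC, TBL1X, RGS16 and WNT7B to the left.

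Enzymes of the tricarboxylic acid cycle and of pyruvate metabolism were mostly lower. Of 47 listed genes 46 were tested, 8 rose and 30 fell, with a median log2 fold change of -0.31. LDHA, the lactate dehydrogenase subunit, fell from 945 and 955 CPM to 361 and 358 CPM (log2 fold change -1.40 ± 0.04, adjusted p = 5.8e-33). PC, pyruvate carboxylase, fell from 11.5 and 10.4 CPM to 4.22 and 4.92 CPM (log2 fold change -1.26 ± 0.20, adjusted p = 5.6e-07). PDK2, which inhibits pyruvate dehydrogenase, rose from 9.09 and 9.14 CPM to 16.4 and 13.1 CPM (log2 fold change 0.69 ± 0.16, adjusted p = 0.0002). DHTKD1, a dehydrogenase of lysine breakdown, rose from 43.2 and 43.7 CPM to 71.3 and 67.2 CPM (log2 fold change 0.67 ± 0.07, adjusted p = 5.2e-11). Genes of the mitochondrial genome are no members of this list, and that genome took 9.32% and 9.86% of counts in the controls and 12.4% in both knockdown libraries. Pentose phosphate and sugar metabolism gave 14 rises and 23 falls of 53 tested among 55 listed. TIGAR, a phosphatase that diverts glucose into the pentose phosphate pathway, rose from 14.7 and 16 CPM to 40 and 37.9 CPM (log2 fold change 1.35 ± 0.10, adjusted p = 3.6e-16). PRPS2, which makes phosphoribosyl pyrophosphate, fell from 66.5 and 63 CPM to 18.5 and 17.6 CPM (log2 fold change -1.84 ± 0.09, adjusted p = 4.1e-24). RBKS, ribokinase, rose from 4.52 and 4.78 CPM to 13.1 and 13.9 CPM (log2 fold change 1.54 ± 0.23).

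Genes of fatty acid oxidation and lipid storage moved in both directions. Of 62 tested among 68 listed, 22 rose and 17 fell. ACSL3, a long-chain acyl-CoA synthetase, fell from 156 and 154 CPM to 35.7 and 31.4 CPM (log2 fold change -2.21 ± 0.07, adjusted p = 3.5e-32). ACSL1, of the same family, fell from 144 and 154 CPM to 47.2 and 56.5 CPM (log2 fold change -1.52 ± 0.07, adjusted p = 2.7e-24). ACSF2, a mitochondrial member of the wider synthetase family, rose from 10.1 and 10.4 CPM to 30.9 and 37.6 CPM (log2 fold change 1.74 ± 0.14, adjusted p = 2.9e-15). SLC27A3, a fatty acid transport protein with synthetase activity, rose from 1.87 and 2.03 CPM to 5.07 and 6.27 CPM (log2 fold change 1.55 ± 0.25, adjusted p = 6.7e-07). In the list of phospholipid, sphingolipid and eicosanoid enzymes 27 rose and 32 fell of 91 tested among 106 listed. SPHK1, which makes sphingosine 1-phosphate, fell from 48.4 and 50 CPM to 13 and 14.9 CPM (log2 fold change -1.81 ± 0.12, adjusted p = 4.9e-19), as its receptor S1PR3 did. CERS6, a ceramide synthase, fell from 77.5 and 81.4 CPM to 25.2 and 26.3 CPM (log2 fold change -1.62 ± 0.08, adjusted p = 5.6e-24). PLD3, a lysosomal nuclease of the phospholipase D family, rose from 42.2 and 43.8 CPM to 126 and 123 CPM (log2 fold change 1.53 ± 0.08, adjusted p = 2.8e-23). PLA2G4C, a cytosolic phospholipase, rose from 3.33 and 3.58 CPM to 13.9 and 14.1 CPM (log2 fold change 2.02 ± 0.24).

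Amino acid enzymes differed by pathway in calls of any size, but not in the direction that held more 2-fold changes. Polyamine, methionine, arginine and proline enzymes gave 9 rises and 23 falls of 41 tested among 47 listed, with a median log2 fold change of -0.39. ASS1, which makes argininosuccinate for arginine synthesis, fell from 391 and 391 CPM to 85.6 and 91.5 CPM (log2 fold change -2.14 ± 0.05, adjusted p = 8.5e-36). CTH, which makes cysteine from cystathionine, fell from 13.9 and 11.8 CPM to 2.7 and 3.34 CPM (log2 fold change -2.09 ± 0.20, adjusted p = 3.2e-13). SAT1, the rate-limiting enzyme of polyamine breakdown, rose from 56.7 and 54.2 CPM to 135 and 126 CPM (log2 fold change 1.23 ± 0.07, adjusted p = 2.8e-21). ALDH4A1 of proline breakdown rose from 14.7 and 12.9 CPM to 31.6 and 29.4 CPM (log2 fold change 1.13 ± 0.12). ODC1, the first enzyme of polyamine synthesis and chosen after its values were seen, fell from 208 and 202 CPM to 56.7 and 56.1 CPM (log2 fold change -1.86 ± 0.06). Glutamine, aspartate and branched-chain amino acid enzymes gave 19 rises and 10 falls of 45 tested among 53 listed, with a median log2 fold change of 0.30. By at least 2-fold, 5 of these rose and 8 fell, and 3 rose and 7 fell in the polyamine list. GPT2, the mitochondrial alanine aminotransferase, fell from 84 and 75.3 CPM to 11.3 and 11.8 CPM (log2 fold change -2.78 ± 0.10, adjusted p = 2.5e-29). BCAT1, the cytosolic branched-chain aminotransferase, fell from 455 and 473 CPM to 187 and 185 CPM (log2 fold change -1.32 ± 0.04, adjusted p = 2e-30). HAAO, an enzyme of the kynurenine pathway, rose from 6.35 and 5.02 CPM to 23.4 and 26.1 CPM (log2 fold change 2.11 ± 0.15, adjusted p = 2.8e-17).

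Nucleotide salvage and breakdown gave 15 rises and 22 falls of 60 tested among 67 listed. TK1, the thymidine kinase of S phase, fell from 71.1 and 70.5 CPM to 11.5 and 10 CPM (log2 fold change -2.72 ± 0.11, adjusted p = 2.7e-26). NT5DC2 fell from 79 and 81.3 CPM to 15 and 15.8 CPM (log2 fold change -2.38 ± 0.09, adjusted p = 4.1e-27). SAMHD1, which hydrolyses deoxynucleoside triphosphates, rose from 70.8 and 65.6 CPM to 180 and 194 CPM (log2 fold change 1.45 ± 0.06, adjusted p = 1.1e-27). NUDT18, which removes oxidised nucleotides, rose from 9.54 and 9.44 CPM to 23.6 and 23.5 CPM (log2 fold change 1.31 ± 0.13, adjusted p = 4.3e-12). Heme, NAD and vitamin genes gave 18 rises and 23 falls of 56 tested among 67 listed. GGH, a hydrolase of folate polyglutamates, fell from 83 and 76 CPM to 17.8 and 15.4 CPM (log2 fold change -2.27 ± 0.10, adjusted p = 5.6e-26). ABCB10, a mitochondrial transporter, fell from 102 and 106 CPM to 31 and 29.4 CPM (log2 fold change -1.79 ± 0.07). PARP10, which uses NAD for ADP-ribosylation, rose from 46.4 and 44.1 CPM to 122 and 123 CPM (log2 fold change 1.43 ± 0.07). PARP9 of the same family rose from 11.1 and 10.7 CPM to 31.5 and 31.8 CPM (log2 fold change 1.54 ± 0.14).

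Metallothioneins bind zinc and copper. Of 32 genes of metallothioneins and trace metal handling 23 were tested, 5 rose and 10 fell, and without the first knockdown library 3 rose. MT2A fell from 18.4 and 17 CPM to 2.17 and 2.93 CPM (log2 fold change -2.78 ± 0.19, adjusted p = 1.1e-17). MT1G fell from 27.6 and 28.3 CPM to 4.15 and 2.87 CPM (log2 fold change -3.00 ± 0.20). Metallothionein genes are near-identical copies in 1 cluster, so how reads were shared among them is uncertain. ATP7A, a copper exporter, rose from 12.5 and 12.2 CPM to 24.3 and 24 CPM (log2 fold change 0.96 ± 0.13, adjusted p = 1.3e-08). CCS, the copper chaperone for superoxide dismutase, rose from 19 and 16.2 CPM to 33.6 and 32.1 CPM (log2 fold change 0.89 ± 0.11). Glycosyltransferases gave 17 rises and 19 falls of 60 tested among 78 listed. FUT7, which completes the sialyl Lewis x structure that selectins bind, fell from 8.04 and 8.3 CPM to 1.78 and 1.11 CPM (log2 fold change -2.50 ± 0.34, adjusted p = 1.4e-08). EXT1, a heparan sulfate polymerase, fell from 4.06 and 6.21 CPM to 1.12 and 1.46 CPM (log2 fold change -1.96 ± 0.32, adjusted p = 6.1e-07). CHST12, a chondroitin sulfotransferase, rose from 20.2 and 19.7 CPM to 49.8 and 55.3 CPM (log2 fold change 1.40 ± 0.08, adjusted p = 5.7e-20).

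Autophagy and lysosome regulation had the highest share of rises of any list, with 38 higher and 8 lower of 60 tested among 66 listed and a median log2 fold change of 0.37. WIPI1, which binds phosphoinositides on forming autophagosomes, rose from 2.15 and 2.33 CPM to 8.04 and 10 CPM (log2 fold change 2.02 ± 0.23, adjusted p = 7.2e-11). OPTN, a cargo receptor, rose from 14.2 and 17.6 CPM to 39.4 and 42.1 CPM (log2 fold change 1.37 ± 0.15, adjusted p = 2.9e-11). DRAM1, a lysosomal membrane protein, fell from 45.4 and 46.2 CPM to 12.1 and 14.6 CPM (log2 fold change -1.77 ± 0.11, adjusted p = 3.4e-19). TPCN1, an endolysosomal channel, fell from 73.4 and 72.1 CPM to 43.5 and 41.4 CPM (log2 fold change -0.78 ± 0.09). Most rises of the list were small, since 7 of the 38 reached 2-fold. Among genes chosen after their values were seen, NBR1, a cargo receptor, rose from 85.7 and 87.6 CPM to 186 and 181 CPM (log2 fold change 1.08 ± 0.05). SQSTM1, or p62, rose from 84.3 and 84.3 CPM to 145 and 145 CPM (log2 fold change 0.78 ± 0.06). BNIP3L, a mitophagy receptor, rose from 61 and 57 CPM to 128 and 115 CPM (log2 fold change 1.04 ± 0.06). TP53INP1, a p53 target, rose from 56.9 and 63.3 CPM to 131 and 135 CPM (log2 fold change 1.15 ± 0.06). In each of these the 2 libraries of a group lay close together, which is no finding for genes chosen in this way.

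Solute carriers gave 49 rises and 90 falls of 234 tested, with a median log2 fold change of -0.16. SLC7A11, the cystine and glutamate exchanger, fell from 48.6 and 55 CPM to 5.14 and 2.46 CPM (log2 fold change -3.79 ± 0.16, adjusted p = 1.5e-26), with a log2 fold change of -4.40 without the first knockdown library. SLCO4A1, an organic anion transporter, fell from 42.3 and 40.7 CPM to 3.62 and 3.69 CPM (log2 fold change -3.50 ± 0.16, adjusted p = 2.9e-25). SLC22A18, a transporter from an imprinted region, rose from 3.11 and 3.11 CPM to 19.1 and 18 CPM (log2 fold change 2.58 ± 0.20, adjusted p = 7.7e-16). SLC9A3, a sodium and proton exchanger, rose from 1.69 and 1.55 CPM to 6.13 and 7.5 CPM (log2 fold change 2.06 ± 0.24). Of 33 ABC transporters tested 12 rose and 10 fell. ABCA7, a lipid transporter, rose from 39.8 and 41.1 CPM to 162 and 173 CPM (log2 fold change 2.05 ± 0.07, adjusted p = 7.1e-31). ABCC4, which exports cyclic nucleotides and drugs, fell from 113 and 116 CPM to 45.1 and 47.1 CPM (log2 fold change -1.31 ± 0.07). Of 51 RAB GTPases tested 12 rose and 19 fell. RAB31, which acts in endosomal traffic, fell from 80.5 and 73.9 CPM to 10.8 and 9.14 CPM (log2 fold change -2.96 ± 0.09, adjusted p = 1.9e-31). Of 46 TRIM genes tested 16 rose and 18 fell. TRIM22, an interferon-induced ubiquitin ligase, rose from 109 and 105 CPM to 306 and 289 CPM (log2 fold change 1.47 ± 0.05). The ZNF family of zinc finger genes had 137 rises and 75 falls of 452 tested, with a median log2 fold change of 0.10. ZNF367 fell from 41.4 and 38.5 CPM to 4.68 and 4.04 CPM (log2 fold change -3.20 ± 0.14, adjusted p = 8.7e-26). ZNF596 rose from 7.17 and 5.56 CPM to 23.5 and 22.7 CPM (log2 fold change 1.84 ± 0.15, adjusted p = 1.4e-15).

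**Figure D4:**
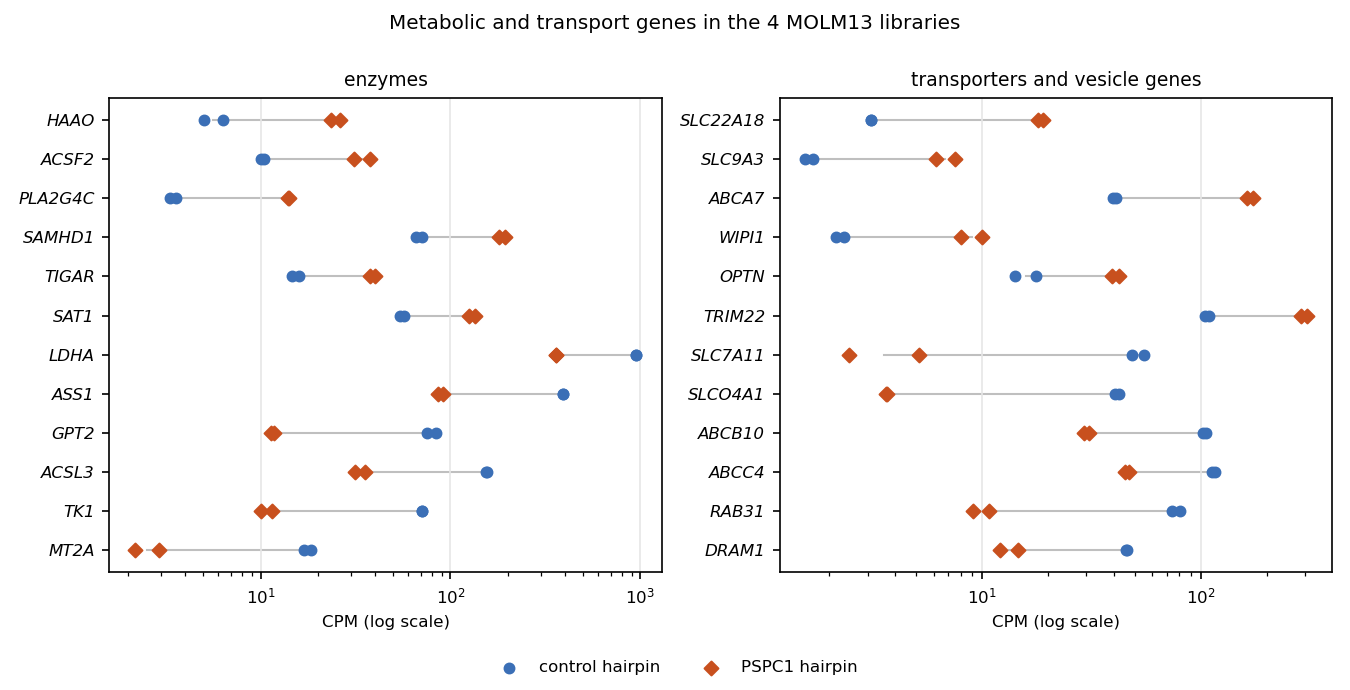
Level in CPM on a log axis of 12 enzyme and metallothionein genes (left) and 12 transporter, vesicle and autophagy genes (right) in the 2 control libraries (blue circles) and the 2 knockdown libraries (orange diamonds) of MOLM13; grey lines join the geometric means of the groups. HAAO, SAMHD1, SLC22A18 and ABCA7 lie to the right of their controls, and ASS1, GPT2, SLC7A11 and RAB31 to the left.

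Long noncoding RNAs rose more often than they fell, with a share of rises near the 27.6% of all genes and a share of falls under the 29.5% of all genes. The median level of their higher group was 1.35 CPM, against 31.2 CPM for protein coding genes. Of 2077 tested, 572 (27.5%) were higher and 183 (8.81%) lower, with a median log2 fold change of 0.46, whereas of 12702 protein coding genes 3574 (28.1%) were higher and 4533 (35.7%) lower, with a median of -0.04. The 463 long noncoding RNAs whose span overlaps no other annotated gene gave 128 rises and 50 falls and a median of 0.54. Pseudogenes gave 243 rises and 79 falls of 1020 tested. Between 5 and 20 CPM, 51.4% of 255 long noncoding RNAs were higher and 17.6% lower, against 28.1% and 34.0% of 2413 protein coding genes. In every bin of the plot by level, the share of falls was lower among long noncoding RNAs than among protein coding genes. Long noncoding RNAs took 1.12% and 1.14% of counts in the controls and 1.64% and 1.63% after knockdown, and NEAT1 and MALAT1 together 0.187% and 0.212% against 0.365% and 0.344%. The libraries were made from mRNA, so nuclear and nonadenylated transcripts are sampled in part, and whether capture moved with the knockdown was not tested.

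**Figure D5:**
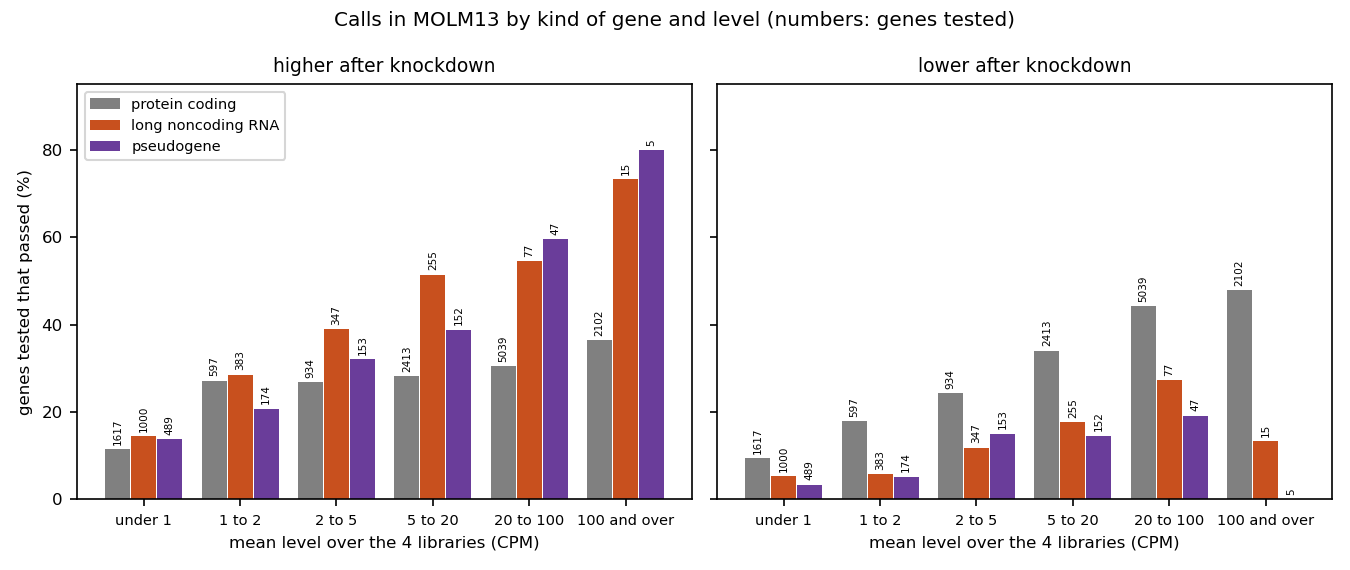
Percent of tested genes that passed an adjusted p of 0.05 higher (left) or lower (right) in MOLM13, by mean level over the 4 libraries in CPM, for protein coding genes (grey), long noncoding RNAs (orange) and pseudogenes (purple); the number over each bar is the genes tested. At 5 to 20 CPM 51.4% of long noncoding RNAs were higher against 28.1% of protein coding genes, and the 2 bins at 20 CPM and over hold under 100 long noncoding RNAs each.

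Of 79 long noncoding RNAs listed by name 50 were tested, 22 rose and 8 fell. PURPL, a p53-regulated RNA, rose from 117 and 120 CPM to 463 and 454 CPM (log2 fold change 1.95 ± 0.05, adjusted p = 9.5e-36). DANCR fell from 57.7 and 55.7 CPM to 17.9 and 17.3 CPM (log2 fold change -1.69 ± 0.09, adjusted p = 2.5e-22). TMPO-AS1 fell from 13.7 and 14 CPM to 3.95 and 4.22 CPM (log2 fold change -1.76 ± 0.21). Of 3 RNAs chosen after their values were seen, NORAD, which sequesters PUMILIO proteins, rose from 279 and 277 CPM to 532 and 517 CPM (log2 fold change 0.92 ± 0.04). FTX, a noncoding RNA of the X-inactivation centre, rose from 34.4 and 33.8 CPM to 100 and 101 CPM (log2 fold change 1.56 ± 0.07). OIP5-AS1, also called cyrano, fell from 298 and 296 CPM to 145 and 148 CPM (log2 fold change -1.02 ± 0.05). The groups of all 3 stood apart, which is no finding for genes chosen in this way.

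By symbol, intergenic LINC RNAs gave 76 rises and 21 falls of 204 tested, antisense RNAs 141 and 32 of 419, and divergent transcripts 21 and 1 of 54, with medians of 0.73, 0.55 and 0.76. GMDS-DT rose from 3.79 and 5.38 CPM to 21 and 19 CPM (log2 fold change 2.14 ± 0.19, adjusted p = 6.7e-14). MANEA-DT rose from 2.15 and 1.31 CPM to 6.33 and 7.44 CPM (log2 fold change 1.96 ± 0.32). The 1 divergent transcript that fell, or 1 of 2 without the first control library, was MAFG-DT, from 7.22 and 8.24 CPM to 4.09 and 3.98 CPM (log2 fold change -0.93 ± 0.24, adjusted p = 0.00097). LINC00996 fell from 8.04 and 8.12 CPM to 0.725 and 1.35 CPM (log2 fold change -2.94 ± 0.31, adjusted p = 1.3e-11). Antisense RNAs cannot be told apart from their sense partners if strand was not used in counting, and no source used here gives the strand setting. Of the 232 genes that the naming rule picked, 132 overlap a gene on the opposite strand. KCNMB2-AS1 had 1 read over both control libraries and 40 over both knockdown libraries, a ratio of 47.9 with a counting interval of 8.12 to 1940. ERICH6-AS1 had 3 and 46 reads, a ratio of 18.4 with an interval of 5.91 to 92.4. SLCO4A1-AS1 had 43 and 3 reads, a ratio of 0.0836 with an interval of 0.0166 to 0.261, and its call was lost without the first control library at an adjusted p of 0.06. Its sense gene SLCO4A1 fell as well.

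The next long noncoding RNAs overlap no other gene in GENCODE v29 by symbol, though no source used here names the release used for counting, and GENCODE types AL358473.1 as antisense and AC107027.3 as sense overlapping. AC008074.2 rose from 2.79 and 4.18 CPM to 14 and 14.2 CPM (log2 fold change 2.04 ± 0.23, adjusted p = 4.9e-11). AC008467.1 rose from 0.685 and 0.418 CPM to 5.6 and 5.04 CPM (log2 fold change 3.21 ± 0.35, adjusted p = 2e-11). AL683807.1 rose from 0.457 and 0.478 CPM to 6.39 and 4.45 CPM (log2 fold change 3.52 ± 0.37). AL358473.1 fell from 8.04 and 5.38 CPM to 0.461 and 0.234 CPM (log2 fold change -4.27 ± 0.50, adjusted p = 1.8e-10). LINC02870 fell from 8.81 and 7.17 CPM to 1.45 and 1.23 CPM (log2 fold change -2.58 ± 0.36). AC107027.3 fell from 4.16 and 3.94 CPM to 0.923 and 0.469 CPM (log2 fold change -2.55 ± 0.40). Each of these 6 was under 15 CPM in every library. Of 23 snoRNA host genes of the SNHG family tested, 4 rose and 11 fell. SNHG7 fell from 53 and 52.6 CPM to 22.5 and 23.1 CPM (log2 fold change -1.21 ± 0.09, adjusted p = 7.5e-16). SNHG10 fell from 5.8 and 6.33 CPM to 2.83 and 3.11 CPM (log2 fold change -1.02 ± 0.25). SNHG29 rose from 496 and 477 CPM to 700 and 703 CPM (log2 fold change 0.53 ± 0.04, adjusted p = 5.2e-15). SNORD3A, the U3 small nucleolar RNA that acts in ribosomal RNA processing, rose from 15.8 and 17.6 CPM to 27.2 and 29.1 CPM (log2 fold change 0.75 ± 0.15, adjusted p = 4e-05); mRNA libraries capture such RNAs in part.

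MicroRNA host genes are long RNAs from which microRNAs are cut. Of 66 listed 25 were tested, 10 rose and 5 fell, and without the second knockdown library 3 fell. MIR17HG, the host of the miR-17-92 cluster that MYC activates, fell from 13.3 and 16.4 CPM to 2.31 and 4.04 CPM (log2 fold change -2.20 ± 0.21, adjusted p = 6.9e-13). MIR22HG rose from 1.19 and 1.67 CPM to 7.25 and 8.32 CPM (log2 fold change 2.47 ± 0.27, adjusted p = 2.3e-11). MIR29B2CHG rose from 1.55 and 1.08 CPM to 5.73 and 4.69 CPM (log2 fold change 1.96 ± 0.36, adjusted p = 7.1e-06). MIR1915HG fell from 26.9 and 27.6 CPM to 18.9 and 15.3 CPM (log2 fold change -0.67 ± 0.15, adjusted p = 9.6e-05). Mature microRNAs were not measured in these libraries, and a change in a host RNA is not a change in its microRNAs. The mature sequences of 9 of their microRNAs are given below to show which seeds each host carries, with the seed (bases 2 to 8) in capitals, from RefSeq on GRCh38.p14. All 9 were found there.
miR-17-5p: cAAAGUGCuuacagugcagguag
miR-18a-5p: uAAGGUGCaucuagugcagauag
miR-19a-3p: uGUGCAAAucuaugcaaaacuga
miR-20a-5p: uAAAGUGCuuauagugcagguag
miR-19b-3p: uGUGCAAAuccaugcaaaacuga
miR-92a-3p: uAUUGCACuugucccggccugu
miR-22-3p: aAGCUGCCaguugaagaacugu
miR-29b-3p: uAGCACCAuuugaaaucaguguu
miR-29c-3p: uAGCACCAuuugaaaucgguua
The 6 arms of the MIR17HG cluster, on chromosome 13, fall into 4 seeds, of which miR-17-5p and miR-20a-5p share AAAGUGC and miR-19a-3p and miR-19b-3p share GUGCAAA. The 2 arms of MIR29B2CHG on chromosome 1 share AGCACCA. The seed of miR-22-3p, from chromosome 17, is none of these.

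Promoters were scanned as a description of the genes that moved by at least 2-fold. Of the genes tested, 7718 had a single RefSeq start on GRCh38.p14, and the window ran from 250 bases before to 50 bases after it. Motifs were searched as letters on both strands, and a match is no evidence of binding. An E2F motif was taken as TTGGCGC, as the more frequent form TTCCCGC, or as the third form, TTCGCGC. Any of these stood in 18.3% of all windows, in 28.7% of 895 windows of genes that fell and in 11.9% of 631 windows of genes that rose. The CHR element TTTGAA stood in 9.72% of all, 15.1% of those that fell and 8.72% of those that rose. An interferon-stimulated response element, TTTC with 2 bases of any kind before another TTTC, stood in 3.20% of all, 4.91% of those that rose and 1.45% of those that fell. The GC box GGGCGG stood in 70.6% of all, 60.2% of those that rose and 74.4% of those that fell, and can overlap an E2F motif. The ETS motif CCGGAAG was in 21.1% of all windows and in lower shares of both those that rose, 12.4%, and those that fell, 14.3%. The median GC content was 65.3% over all windows, 64.3% for genes that rose and 66.3% for genes that fell.

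Parts of 4 windows are shown, of 2 genes that fell and hold E2F motifs (ZNF367 and KCNK5) and of 2 that hold the interferon element and went in opposite directions (IFI6 and MNDA). Each is the part upstream of the RefSeq start that holds the motifs, with the matches in capitals.
ZNF367: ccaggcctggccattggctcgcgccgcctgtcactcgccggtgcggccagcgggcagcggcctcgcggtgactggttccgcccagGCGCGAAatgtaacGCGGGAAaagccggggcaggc
KCNK5: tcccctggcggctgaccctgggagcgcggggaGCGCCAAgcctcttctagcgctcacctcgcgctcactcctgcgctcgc
IFI6: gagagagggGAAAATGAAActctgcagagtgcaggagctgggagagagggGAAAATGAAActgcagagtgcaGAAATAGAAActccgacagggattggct
MNDA: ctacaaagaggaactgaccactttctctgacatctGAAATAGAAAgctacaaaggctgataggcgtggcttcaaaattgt
The windows lie at chr9:96418371-96418490 for ZNF367, chr6:39229596-39229675 for KCNK5 and chr1:27672258-27672357 for IFI6, all on the minus strand, and at chr1:158831231-158831310 on the plus strand for MNDA. ZNF367 held 2 E2F matches and KCNK5 held 1. IFI6, an interferon-induced mitochondrial protein, held 3 matches to the interferon element and rose from 6.35 and 5.02 CPM to 55 and 47.3 CPM (log2 fold change 3.15 ± 0.14, adjusted p = 1.1e-24). MNDA, a nuclear antigen of myeloid cells in the interferon-inducible IFI200 family, held 1 match and fell from 9.68 and 11.2 CPM to 4.55 and 5.04 CPM (log2 fold change -1.12 ± 0.19, adjusted p = 1.5e-06).

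The response of MOLM13 differed from that of OCI-AML5, by an interaction term in the same fit, for 5021 genes (30.5% of those tested). Counted with its sign, the log2 fold change was higher in MOLM13 for 2055 (12.5%) and lower for 2966 (18.0%). A gene that fell further in MOLM13 is thus among the lower ones, and these counts do not say in which line the response was stronger. PSPC1 itself did not pass that test, with a difference in log2 fold change of 0.10 ± 0.11 (adjusted p = 0.52). A change called in opposite directions in the lines, with the difference called, was found for 602 genes (3.66%). TEC, a kinase of the BTK family, rose from 20.9 and 20.6 CPM to 44.9 and 45.1 CPM in MOLM13 and fell from 167 and 167 CPM to 49.5 and 49.3 CPM in OCI-AML5, a difference in log2 fold change of 2.87 ± 0.10 (adjusted p = 1.1e-27). GCNT1, which starts core 2 branches on O-glycans, rose from 38.4 and 43.3 CPM to 89.3 and 94.1 CPM in MOLM13 and fell from 47.7 and 40.9 CPM to 11.8 and 13.3 CPM in OCI-AML5 (difference 3.0 ± 0.13, adjusted p = 1.8e-24). CES1, a carboxylesterase of monocytes, fell from 211 and 201 CPM to 79 and 84.6 CPM in MOLM13 and rose from 2.72 and 3.86 CPM to 7.18 and 6 CPM in OCI-AML5 (difference -2.37 ± 0.18, adjusted p = 1.3e-15). Of the 602 genes, 278 that reached at least 5 CPM in both lines were higher in MOLM13 after knockdown and 231 were lower.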

How the data were processed

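RNA-seq libraries of MOLM13 and OCI-AML5 cells with a control or a PSPC1 hairpin (2 of each per line) were analysed from the raw count table that the authors deposited, with whole-number read counts per gene symbol for 60648 genes. Per the submitters' processing notes, Trim Galore 0.6.7, STAR 2.7.10a, HTSeq 2.0.2, DESeq2 1.36.0 and the GRCh38 (hg38) genome were used, with roles not stated. No source used here gives the gene annotation's release or whether reads were counted by strand. Groups were taken from the sample titles. The PU.1 table was not used here, and a few genes and 1 gene list are not reported here.

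From the counts, edgeR 4.0.16 (R 4.3.3, limma 3.58.1) was run over all 8 libraries with filterByExpr, TMM factors, 1 coefficient per group and the quasi-likelihood test, with Benjamini-Hochberg adjustment over the 16457 genes that passed the filter. The 4 MOLM13 libraries held 15372383 to 22757998 counts. CPM were computed with TMM effective library sizes. No unused column of per-sample values was left in the table. Gene types and overlaps came from GENCODE v29 by symbol (56144 symbols matched), and promoter and microRNA sequences from RefSeq. The fit was tested on simulated data.

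The members and gene lists were chosen with earlier results of these data known. Up to 2 largest rises and 2 largest falls of each list were named, with an adjusted p under 0.05, at least 5 CPM in the higher group (1 CPM for noncoding lists) and both knockdown libraries beyond both controls. To these came the 8 largest changes each way at 50 CPM, the 6 largest each way among long noncoding RNAs without overlap at 2 CPM, and up to 5 genes each way called in opposite directions in the lines. Genes named outside this rule are said to be markers of the line or chosen after their values were seen. Alternatives were other scalings and filters, DESeq2 1.42.0, the MOLM13 libraries alone, a replicate block, an adjusted p of 0.01 and leaving out each library. A gene with no read in a group has a fold change set by edgeR's prior. With such genes at the bound that 3 reads over the group give, list medians moved by at most 0.10, except for the TNF receptor list (0.37).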

Additional observations from a re-analysis of the deposited data

Results flagged for a closer look

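The response to PSPC1 knockdown differed between MOLM13 and OCI-AML5, by the interaction term of the edgeR fit, for genes of many of the lists. The 27 with a difference of at least 2 on the log2 scale are given here, a limit set after the values were seen. Each difference is the log2 fold change in MOLM13 minus that in OCI-AML5, with its SE. All 27 are named genes, and passing this test at an adjusted p of 0.05 was a condition for giving them here, so it is no finding for them. Apart from the genes called in opposite directions, they were named for large changes in MOLM13. A larger change in MOLM13 than in OCI-AML5 is favoured by that choice and is no finding for them either. Of all genes tested 30.5% passed it.

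Among receptors and signalling genes, TNFRSF14 rose in MOLM13 and was at 1.96 and 2.91 CPM and then 2.97 and 1.44 CPM in OCI-AML5 (difference 2.97 ± 0.56, adjusted p = 3.2e-05). GNG7 had a difference of 2.41 ± 0.21, starting from 2.42 and 3.82 CPM in MOLM13 and from 23.7 and 27.6 CPM in OCI-AML5. RGS16 fell in both lines and further in MOLM13 (difference -2.77 ± 0.26). PDE4D fell in MOLM13 and rose in OCI-AML5 (-2.46 ± 0.23). PIM1 fell in both, with log2 fold changes of -2.66 and -0.40 (difference -2.26 ± 0.10). SPRY4 differed by -2.24 ± 0.51. For KREMEN1 the OCI-AML5 libraries were at 11.7 and 11.9 CPM and 11.2 and 14.6 CPM (difference -2.08 ± 0.33). PTK2 fell more in OCI-AML5 (2.11 ± 0.64), where both knockdown libraries were under 0.2 CPM, and missed the threshold without the first OCI-AML5 control (adjusted p = 0.053) or the first OCI-AML5 knockdown library (0.07). RASGRP4 was under 0.5 CPM in all OCI-AML5 libraries, and its difference of 2.03 became 0.09 without the first OCI-AML5 control (adjusted p = 1). That difference also missed the threshold without 4 other single libraries, at adjusted p-values of 0.053 to 0.14, and with no filter on low counts (0.082).

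Among transcription factors, GATA2 was at 16.8 and 16.1 CPM and 17.4 and 17.7 CPM in OCI-AML5 (difference -2.25 ± 0.20). OLIG1 differed by -3.12 ± 0.27 and NFE2 by -2.35 ± 0.26. OLIG2 was under 0.2 CPM in every OCI-AML5 library, so its difference of -4.62 ± 1.58 compares a fall in MOLM13 with almost no reads, and it missed the threshold with DESeq2 (adjusted p = 0.11) and without the second OCI-AML5 knockdown library (0.33). BCL6 rose in MOLM13 and fell from 59.4 and 54.3 CPM to 19 and 20.5 CPM in OCI-AML5 (2.24 ± 0.19).

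Of the other genes, XRCC2, a homologous recombination factor, fell in both lines and further in MOLM13 (-2.04 ± 0.16), and so did SLCO4A1 (-2.01 ± 0.22). AC008074.2, a long noncoding RNA, rose in MOLM13 and was at 3.37 and 5.06 CPM and 4.13 and 3.56 CPM in OCI-AML5 (2.15 ± 0.34).

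The naming rule also took 10 genes called in opposite directions. Higher in MOLM13 were GCNT1 (3.0), TEC (2.87), FGD2, an exchange factor for CDC42 (3.15 ± 0.20), PAQR8, a membrane progestin receptor (3.18 ± 0.21), and MYOM1, a sarcomere protein (3.50 ± 0.38). FGD2 rose from 16.1 and 15.8 CPM to 54.5 and 50.2 CPM in MOLM13 and fell from 11.3 and 10.4 CPM to 3.93 and 4.11 CPM in OCI-AML5. PAQR8 rose from 14.9 and 17.9 CPM to 58 and 55.8 CPM and fell from 8.64 and 7.97 CPM to 3.09 and 3.33 CPM. Lower in MOLM13 were CES1 (-2.37), PRAM1, an adaptor of myeloid cells (-2.96 ± 0.27), the costimulatory ligand CD86 (-2.46 ± 0.40), MNDA (-2.14 ± 0.26) and TSPYL2, a nucleosome assembly protein (-2.01 ± 0.28). PRAM1 fell from 20 and 19.3 CPM to 5.93 and 4.86 CPM in MOLM13 and rose from 4.62 and 3.48 CPM to 9.61 and 7.72 CPM in OCI-AML5. CD86 fell from 5.75 and 4.9 CPM to 2.44 and 2.7 CPM and rose from 2.01 and 1.96 CPM to 4.59 and 6.06 CPM.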

How the results depend on the processing

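The counts of genes higher and lower, of 2-fold changes and of genes that differed between the lines, and the fall of PSPC1, stayed within 1.5 times or on the same side of the threshold under RLE size factors, library size alone, DESeq2, either other filter, the MOLM13 libraries alone (which give no difference between lines), the replicate block, an adjusted p of 0.01, and leaving out each of the 8 libraries. Leaving out 1 library gave 3766 to 4633 genes higher, 4421 to 5017 lower, 1354 to 1675 and 1722 to 1856 of them by 2-fold, 4354 to 4832 that differed between lines, and a log2 fold change of PSPC1 of -2.31 to -2.26. With a group cut to 1 library, that library is assumed to vary like the others. Which direction held more genes depended on scaling, with 4537 higher and 4851 lower as reported, 4746 and 4670 with RLE size factors, and 4902 and 4563 with library size alone, which moved the median of all genes from 0.01 to 0.03 and 0.05. Of 258 results on named genes 254 to 258 kept their direction and their side of the threshold where the setting tested all of them, and none reversed. Counts of 5 lists moved past 1.5 times at an adjusted p of 0.01, among them cytokine receptors higher (5), TNF receptors lower (4), TRIM genes lower (11) and LINC RNAs lower (12). Medians of glycosyltransferases, TRIM, phospholipid, calcium, cytokine, TNF, innate, immunoglobulin-like and adhesion receptors lay near 0 and changed sign under at least 1 setting. Genes under about 1 CPM rest on few reads.

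No source used here says whether same-numbered libraries were handled together. Their deviations from their group means correlated between groups at -0.018 to 0.016 over 16457 genes. No large shared shift was thus seen, and a small one could not be detected in this way. With the replicate number as a block, 4450 genes were higher and 4790 lower, 1584 and 1769 by 2-fold, PSPC1 was at -2.27, and every named gene kept its call.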
